A study of Mus musculus with 6 samples.

Results

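The enzymes described here write, keep and remove DNA methylation or place the Polycomb mark on histone H3. The 10 genes were chosen by symbol from the 24982 genes listed in each file: *Dnmt1*, *Uhrf1*, *Hells*, *Dnmt3a*, *Dnmt3b*, *Tet1*, *Tet2*, *Tet3*, *Ezh2* and *Ezh1*. All 10 were listed, and 9 of them passed the filter on low coverage. RNA-seq was used on keratinocyte lines from the skin of neonatal C57BL/6 mice that received no treatment. The KSFM-Ca2+ line (3 libraries) was derived and kept in a serum-free medium low in calcium. The DKSFM line (3 libraries) descends from KSFM-Ca2+ cells that were adapted to a defined medium with more calcium, so the lines differ in medium, in calcium and in their history of selection, and these cannot be told apart. The sample labels do not say whether replicates were separate cultures, so p-values measure only the spread between these libraries, which may be technical. The values are mean read coverage per base of each gene, and the summed coverage was 1601676, 1238411 and 1057750 in the KSFM-Ca2+ libraries and 1174348, 1239438 and 1170675 in the DKSFM libraries.

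DNA methylation at CpG sites is copied after replication by DNMT1, which UHRF1 brings to newly made DNA, and it is set anew by DNMT3A and DNMT3B. TET enzymes oxidise the methyl group, which can lead to its loss. Polycomb repressive complex 2 (PRC2) methylates lysine 27 of histone H3 through EZH2 or its paralogue EZH1, and in the epidermis both DNMT1 and EZH2 are known for keeping basal progenitors proliferating and for holding back differentiation genes.

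The genes split by direction. In limma's moderated test, with a threshold of 0.01 on the adjusted p, 4 of the 9 tested genes were lower in the DKSFM cells, *Dnmt1*, *Uhrf1*, *Hells* and *Ezh2*, where 37.4% of all 12409 tested genes were lower. Another 4 were higher, *Dnmt3a*, *Tet2*, *Tet3* and *Ezh1*, where 35.1% of all tested genes were higher. *Dnmt3b* did not pass the threshold, and *Tet1* was not tested. With so many genes called in each direction, these counts are close to what the table holds as a whole. A change of at least 2-fold was found for 1 gene on each side, *Hells* among the lower genes (10.6% of all tested genes) and *Tet2* among the higher genes (13.1% of all tested genes). For the same 4 lower genes every DKSFM library lay below every KSFM-Ca2+ library, as in 42.4% of tested genes, and for the same 4 higher genes every DKSFM library lay above, as in 40.9%. The median absolute log2 fold change over all tested genes was 0.49, and *Dnmt1*, *Ezh2*, *Dnmt3a* and *Dnmt3b* changed by less than that.

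**Figure D1:**
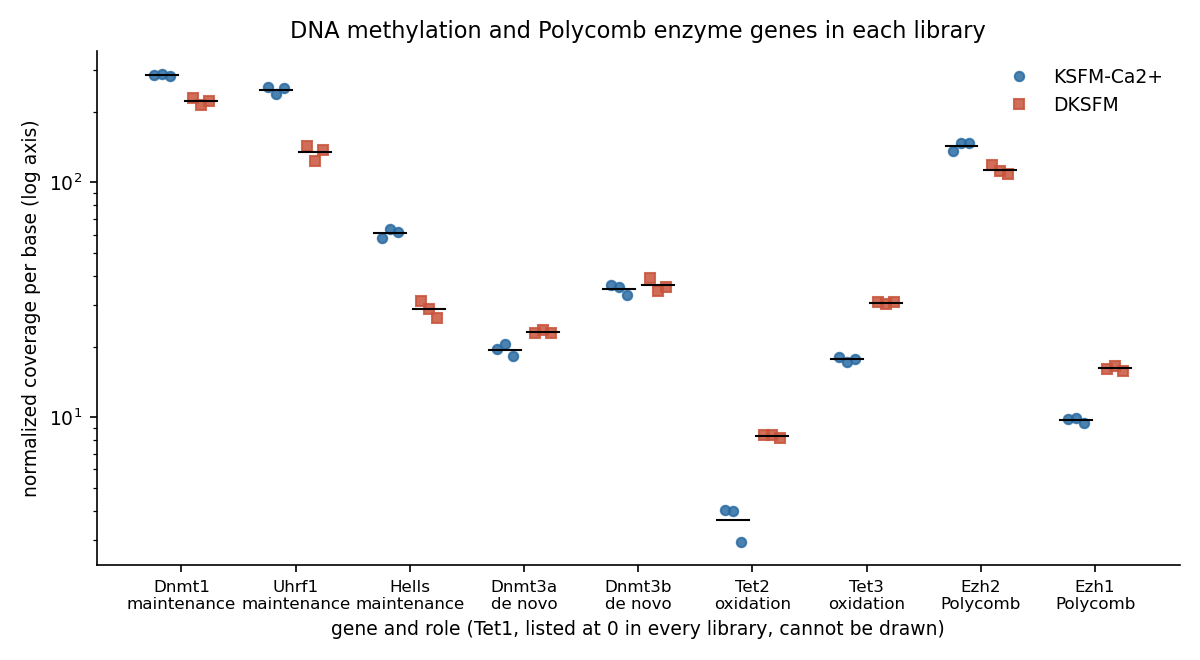
Normalized coverage per base, on a log axis, of the 9 tested genes in the 3 KSFM-Ca2+ libraries (circles) and the 3 DKSFM libraries (squares), with black lines at the means. The lines are apart for every gene drawn except *Dnmt3b*; *Tet1* was listed at 0 and is not drawn.

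Promoter sequences are shown because the 4 genes that fell share a motif. Since the motif was picked with the fold changes known, its presence in these genes is a description and not a test. Each window runs from 250 bases before to 50 bases after a RefSeq start site (GRCm38.p6), and all 10 genes had at least 1 window, 15 in all. Both strands were searched for the 4 spellings TTTCCCGC, TTTCGCGC, TTTGCCGC and TTTGGCGC of the motif bound by E2F factors, a choice made after the fold changes had been seen. The motif was found in 2.26% of the 32851 windows in the table. Each of the 4 genes that fell had a window with a match, while no window of the other 6 genes held one, which says only that these letters are not there. The matched windows are given 5′ to 3′ on the strand of the gene, with the matches in capitals, followed by that of *Ezh1*, the paralogue of *Ezh2* that rose and has no match.
Dnmt1 (chr9:20952574-20952873, minus strand): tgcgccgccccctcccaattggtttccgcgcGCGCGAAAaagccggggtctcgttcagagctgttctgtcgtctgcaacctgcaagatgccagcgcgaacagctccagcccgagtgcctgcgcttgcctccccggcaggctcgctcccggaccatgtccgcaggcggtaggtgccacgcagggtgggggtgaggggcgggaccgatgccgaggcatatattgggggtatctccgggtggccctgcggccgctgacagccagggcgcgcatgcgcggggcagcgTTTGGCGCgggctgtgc
Uhrf1 (chr17:56304063-56304362, plus strand): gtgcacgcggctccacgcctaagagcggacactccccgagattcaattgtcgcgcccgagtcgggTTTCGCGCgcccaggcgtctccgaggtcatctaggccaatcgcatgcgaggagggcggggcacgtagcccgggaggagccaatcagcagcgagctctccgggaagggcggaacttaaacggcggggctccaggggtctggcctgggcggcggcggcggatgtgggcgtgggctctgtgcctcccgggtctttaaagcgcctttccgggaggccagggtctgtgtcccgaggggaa
Hells (chr19:38930740-38931039, plus strand): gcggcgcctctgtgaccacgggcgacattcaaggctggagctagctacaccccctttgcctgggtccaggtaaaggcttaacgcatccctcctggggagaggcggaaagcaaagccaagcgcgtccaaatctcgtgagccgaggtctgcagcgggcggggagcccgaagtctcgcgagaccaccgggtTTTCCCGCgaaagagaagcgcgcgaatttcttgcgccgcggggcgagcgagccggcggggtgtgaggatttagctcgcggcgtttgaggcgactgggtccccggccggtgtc
Ezh2 (chr6:47594981-47595280, minus strand): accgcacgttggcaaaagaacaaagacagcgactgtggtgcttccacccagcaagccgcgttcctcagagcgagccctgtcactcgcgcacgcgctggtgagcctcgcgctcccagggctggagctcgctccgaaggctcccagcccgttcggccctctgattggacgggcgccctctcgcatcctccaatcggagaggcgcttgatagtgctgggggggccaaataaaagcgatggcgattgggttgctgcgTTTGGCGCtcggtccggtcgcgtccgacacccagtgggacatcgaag
Ezh1 (chr11:101226414-101226713, minus strand): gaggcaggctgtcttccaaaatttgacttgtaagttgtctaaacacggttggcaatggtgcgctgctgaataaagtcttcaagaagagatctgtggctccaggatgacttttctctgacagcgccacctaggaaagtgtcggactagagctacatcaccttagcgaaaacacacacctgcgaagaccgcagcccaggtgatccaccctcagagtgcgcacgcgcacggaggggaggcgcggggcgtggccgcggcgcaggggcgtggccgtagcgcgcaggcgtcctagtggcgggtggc
The *Dnmt1* window belongs to 1 of 3 listed starts and held 2 matches, GCGCGAAA on the strand opposite to the gene, starting 219 bases before the start site, and TTTGGCGC on its own strand at base 34 after it. In *Uhrf1*, with 2 listed starts, the match TTTCGCGC began 185 bases before the start site, and in *Hells* the match TTTCCCGC began 62 bases before it. In *Ezh2* the match TTTGGCGC began at base 4 of the transcript. Which of the listed starts these cells use was not determined. A further spelling, TTCCCGCC, found in 2.19% of all windows, was present in 1 of the 15, that of the other *Uhrf1* start.

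**Figure D2:**
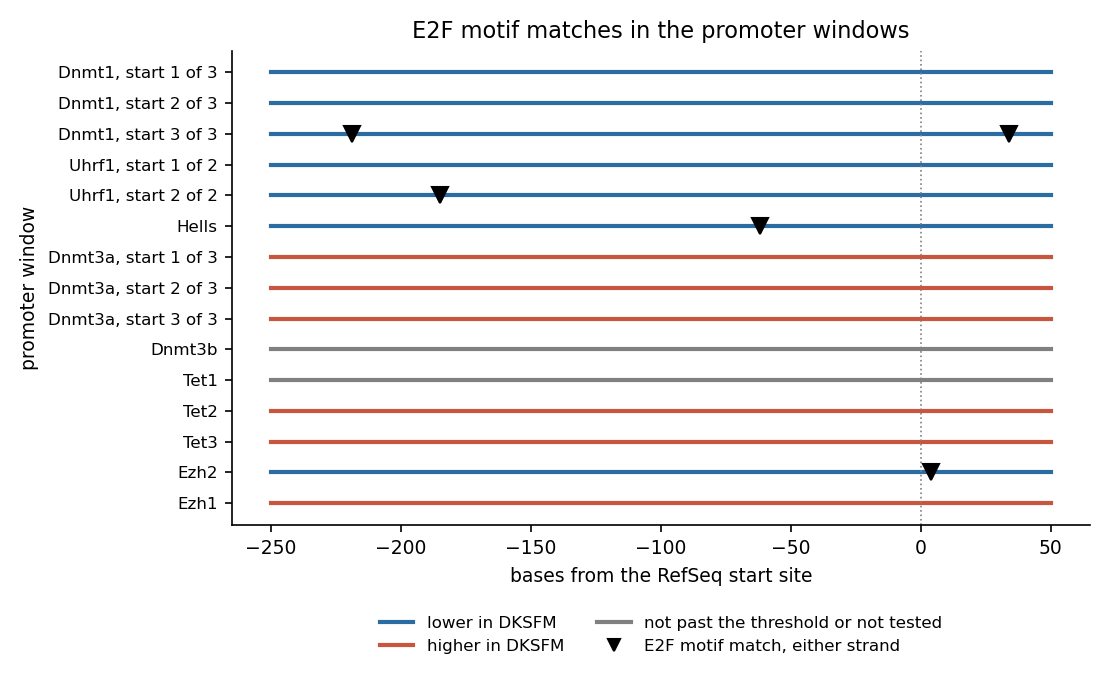
Position of E2F motif matches (triangles) in the 15 promoter windows, in bases from the RefSeq start site; the colour of each window gives the direction of the gene in DKSFM cells. Matches lie in windows of *Dnmt1*, *Uhrf1*, *Hells* and *Ezh2* and in none of the others.

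Counted by gene rather than by window, 467 of the 9618 tested genes with a window (4.86%) had a match in at least 1 of their windows. Of these 467 genes, 46.3% were lower in the DKSFM cells at an adjusted p under 0.01 (limma) and 28.9% were higher, and their median log2 fold change was -0.17. Among tested genes without a match 36.2% were lower, with a median of 0.01. The genes with a match include the 4 enzyme genes that fell, and any part of E2F factors in these changes was not tested. CpG sites, the substrate of the DNA methylation enzymes, numbered from 2 to 57 in the 15 windows against a median of 7 over all windows. The lowest number was in 1 of the *Dnmt1* windows and the highest in that of *Tet2*, and the 4 matched windows held 33, 33, 34 and 31 in the order printed. Every spelling of the motif contains a CpG site, so the share of all windows with a match is not a like background for these windows.

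Among the genes of maintenance methylation, *Dnmt1* encodes the methyltransferase itself (chromosome 9 from 20907209 to 20959888, minus strand; GENCODE M21, GRCm38). Its normalized coverage was 288, 289 and 284 in the KSFM-Ca2+ libraries and 229.6, 214 and 223 in the DKSFM libraries. The lines did not overlap, and the means were 287 ± 2.78 and 222 ± 7.80 (SD, n = 3 libraries each), a 1.29-fold lower level in the DKSFM cells (log2 fold change -0.37 ± 0.03 SE, adjusted p = 1.03e-05 in limma's test). Fold changes here are on the scale of log2(normalized coverage + 0.1). In bulk RNA, fewer cells of a type and less RNA per cell cannot be told apart. *Dnmt1* was still the most covered of the 10 genes per base in both lines, above 93.7% of tested genes in the KSFM-Ca2+ cells and 91.9% in the DKSFM cells.

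*Uhrf1*, which encodes the protein that reads hemimethylated CpG sites behind the replication fork, lies on chromosome 17 from 56303321 to 56323486 (plus strand). Its normalized coverage was 254, 238 and 254 in the KSFM-Ca2+ libraries and 143, 124 and 137 in the DKSFM libraries. All 3 DKSFM libraries were far under the lowest KSFM-Ca2+ library, with means of 249 ± 9.10 and 135 ± 9.68 (SD, n = 3). The level was 1.85-fold lower in the DKSFM cells (log2 fold change -0.89 ± 0.05 SE, limma adjusted p = 1.3e-06), with a 95% confidence interval from -1.01 to -0.76 that reaches the 2-fold line. The ratio of *Uhrf1* to *Dnmt1* coverage within a library, with 0.1 added to both, was 0.882, 0.823 and 0.893 in the KSFM-Ca2+ cells and 0.621, 0.579 and 0.616 in the DKSFM cells. This ratio was lower in all DKSFM libraries and was not tested.

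*Hells* encodes LSH, a chromatin remodeler that helps DNA methyltransferases reach packed DNA (chromosome 19 from 38930915 to 38971051, plus strand). It had normalized coverages of 58.0, 63.4 and 61.5 in the KSFM-Ca2+ libraries and 31.4, 28.9 and 26.4 in the DKSFM libraries. These means of 61.0 ± 2.76 and 28.9 ± 2.47 (SD, n = 3) made it the gene with the largest fall of the 10, 2.11-fold (log2 fold change -1.08 ± 0.07 SE, limma adjusted p = 1.33e-06). Its interval runs from -1.23 to -0.92 and so includes changes of a little under 2-fold. Per base, *Hells* moved from above 70.6% of tested genes in the KSFM-Ca2+ cells to above 53.2% in the DKSFM cells.

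The 3 tested genes whose profile over the 6 libraries was nearest to that of *Dnmt1*, by root mean square difference of mean-centred log2 values, were *Ganab* (0.00651), a glucosidase subunit gene, *Eif3a* (0.0137), a translation initiation factor gene, and *Jag2* (0.0158), a Notch ligand gene. None of them belongs to the lists of replication or methylation genes used here, and their log2 fold changes were -0.38, -0.35 and -0.38.

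Neither gene for a de novo methyltransferase was called lower. *Dnmt3a* (chromosome 12 from 3806007 to 3914443, plus strand) had normalized coverages of 19.5, 20.5 and 18.2 in the KSFM-Ca2+ libraries and 22.9, 23.6 and 22.8 in the DKSFM libraries. The lines were apart by a narrow margin, with means of 19.4 ± 1.13 and 23.1 ± 0.445 (SD, n = 3), a 1.19-fold higher level in the DKSFM cells (log2 fold change 0.26 ± 0.05 SE, limma adjusted p = 0.00266). Of the 8 calls this was the only one lost under any of the alternatives tried: without DKSFM replicate 2 its adjusted p in limma was 0.0128, the highest of a range from 0.00171 to 0.0128 over 16 alternatives.

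*Dnmt3b* (chromosome 2 from 153649450 to 153687730, plus strand) had normalized coverages of 36.6, 35.9 and 33.1 in the KSFM-Ca2+ libraries and 39.2, 34.4 and 35.9 in the DKSFM libraries. The libraries of the lines overlapped, and the means were 35.2 ± 1.87 and 36.5 ± 2.44 (SD, n = 3). The log2 fold change of 0.05 did not pass the threshold (adjusted p = 0.457, limma). Its 95% confidence interval, from -0.09 to 0.19, leaves room for a level up to 1.14-fold higher or, at the other end, 0.939 times that of the KSFM-Ca2+ cells. Annotated genes on the other strand overlap *Dnmt3a*, *Dnmt3b*, *Tet2*, *Tet3* and *Ezh2*, and annotated genes on the same strand overlap *Dnmt1* (*Mir7081*), *Tet1* (*Gm26479* and *Gm48353*) and *Tet3* (*5430434F05Rik* and *Mir6374*). The libraries were directional and the authors aligned them with a strand setting, but it is not stated whether the coverage follows strand, and no such setting separates genes on the same strand. Reads of these overlapping genes may therefore not be told apart. *Dnmt3aos*, opposite *Dnmt3a*, and *B230319C09Rik*, opposite *Tet3*, were listed at 0 in all 6 libraries.

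The coverage of *Dnmt3a* was below that of *Dnmt3b* in every library, with ratios (0.1 added to both genes) of 0.533, 0.570 and 0.551 in the KSFM-Ca2+ cells and 0.585, 0.687 and 0.637 in the DKSFM cells. The log2 ratio differed by 0.20 between the lines, without overlap, and the exact two-sided permutation test over the 6 libraries gave p = 0.1, the smallest that 3 against 3 can give.

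Of the TET genes, whose products oxidise methylated cytosine, *Tet1* (chromosome 10 from 62804570 to 62908996, minus strand) was listed at 0 in all 6 libraries. With values rounded to steps of 0.1, this gives a coverage too low to list and does not show that the transcript is absent. *Tet2* (chromosome 3 from 133463679 to 133545139, minus strand) had normalized coverages of 4.04, 3.97 and 2.95 in the KSFM-Ca2+ libraries and 8.37, 8.44 and 8.17 in the DKSFM libraries. The DKSFM libraries were all alike, while KSFM-Ca2+ replicate 3 lay under the other 2 of its line, so that the SD was 16.7% of the mean in the KSFM-Ca2+ cells and 1.65% in the DKSFM cells. The means of 3.66 ± 0.609 and 8.33 ± 0.137 (SD, n = 3) correspond to a 2.26-fold higher level in the DKSFM cells (log2 fold change 1.18 ± 0.12 SE, limma adjusted p = 3.62e-05). The interval from 0.89 to 1.47 includes values under 2-fold.

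*Tet3* (chromosome 6 from 83362373 to 83459084, minus strand) was the more covered TET gene in every library. It had normalized coverages of 18.0, 17.2 and 17.7 in the KSFM-Ca2+ libraries and 31.1, 30.4 and 31.0 in the DKSFM libraries. These values spread little within a line (17.6 ± 0.423 and 30.8 ± 0.375, SD, n = 3) and showed a 1.74-fold rise (log2 fold change 0.80 ± 0.04 SE, limma adjusted p = 5.73e-07). Summed over the 3 TET genes, the normalized coverage was 22.1, 21.1 and 20.7 in the KSFM-Ca2+ libraries and 39.4, 38.8 and 39.2 in the DKSFM libraries.

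The catalytic subunits of PRC2 moved in opposite directions. *Ezh2* (chromosome 6 from 47530139 to 47595341, minus strand), the form typical of dividing cells, had normalized coverages of 136, 147 and 147 in the KSFM-Ca2+ libraries and 118, 111 and 109 in the DKSFM libraries. The DKSFM libraries were all lower, by a modest amount, with means of 143 ± 6.03 and 113 ± 4.77 (SD, n = 3), a 1.27-fold difference (log2 fold change -0.34 ± 0.04 SE, limma adjusted p = 1.16e-04). *Ezh1* (chromosome 11 from 101191115 to 101226463, minus strand), the form that persists in resting cells, had 9.84, 9.93 and 9.45 in the KSFM-Ca2+ libraries and 16.1, 16.6 and 15.8 in the DKSFM libraries. All DKSFM libraries were higher, with means of 9.74 ± 0.252 and 16.2 ± 0.384 (SD, n = 3), a 1.65-fold rise (log2 fold change 0.73 ± 0.05 SE, limma adjusted p = 4.39e-06).

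The ratio of *Ezh2* to *Ezh1* within a library hardly depends on the scaling between libraries. After 0.1 was added to both genes it was 13.7, 14.7 and 15.4 in the KSFM-Ca2+ cells and 7.30, 6.69 and 6.85 in the DKSFM cells, with means of 14.6 ± 0.822 and 6.95 ± 0.314 (SD, n = 3). *Ezh2* thus remained the more covered paralogue in both lines, with a lead that was smaller in the DKSFM cells (log2 ratio lower by 1.07; exact two-sided permutation p = 0.1 over the 6 libraries, the smallest possible).

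**Figure D3:**
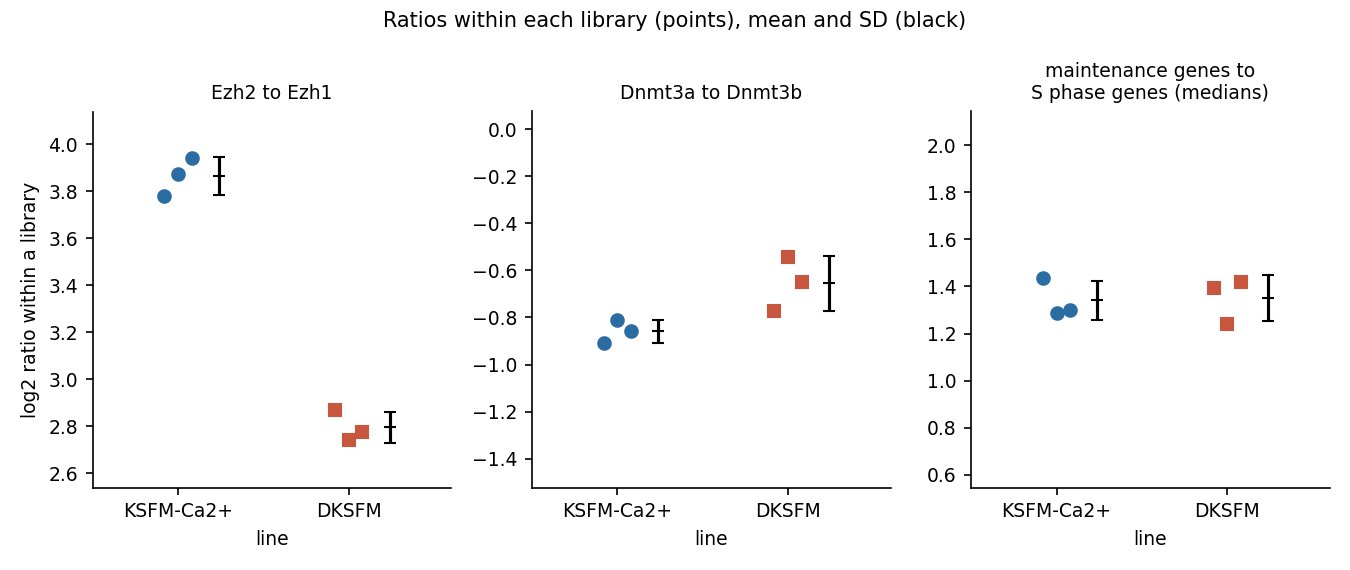
Log2 ratios within each library for *Ezh2* to *Ezh1*, for *Dnmt3a* to *Dnmt3b*, and for the median of *Dnmt1*, *Uhrf1* and *Hells* to the median of the S phase genes, by line, with mean and SD (n = 3) in black; the panels span the same number of log2 units. The first ratio is apart between the lines by 1.07 and the second by 0.20, while the last overlaps.

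Coverage is given per base, so levels can be set side by side between genes, but only roughly. The transcripts taken for each gene and overlapping genes can shift a level, and their part in the order was not tested. In the KSFM-Ca2+ cells the order was *Dnmt1*, *Uhrf1*, *Ezh2*, *Hells*, *Dnmt3b*, *Dnmt3a*, *Tet3*, *Ezh1*, *Tet2* and *Tet1*, and no neighbours in that order overlapped over the 3 libraries. In the DKSFM cells *Dnmt1*, *Uhrf1*, *Ezh2* and *Dnmt3b* led, and *Tet3* and *Hells* came next with overlapping spans, ahead of *Dnmt3a*, *Ezh1*, *Tet2* and *Tet1*. *Hells* thus lay far above *Tet3* in each KSFM-Ca2+ library, while of its 3 DKSFM values 1 was above and 2 were below all those of *Tet3*.

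Fold changes differed between chromosomes, with medians relative to all tested genes from -0.43 on chromosome 1 to 0.31 on chromosome 6, which carries *Tet3* and *Ezh2*. The genes around each enzyme gene are therefore given beside it. Among the other tested genes within 10 Mb of *Dnmt1* (98 genes), the median log2 fold change relative to all tested genes was -0.28, close to the -0.37 of *Dnmt1* itself. *Uhrf1* fell although its 109 neighbours had a median of 0.26, and *Ezh2* fell although its 98 neighbours had a median of 0.22. The window medians were 0.36 for *Tet3* and 0.23 for *Tet2*, in the direction of these genes but smaller than their changes, and -0.15 for *Ezh1*, against its rise. For *Hells*, *Dnmt3b* and *Dnmt3a* they lay between -0.10 and 0.03. The part of these neighbourhood shifts in the changes of the enzyme genes was not tested.

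**Figure D4:**
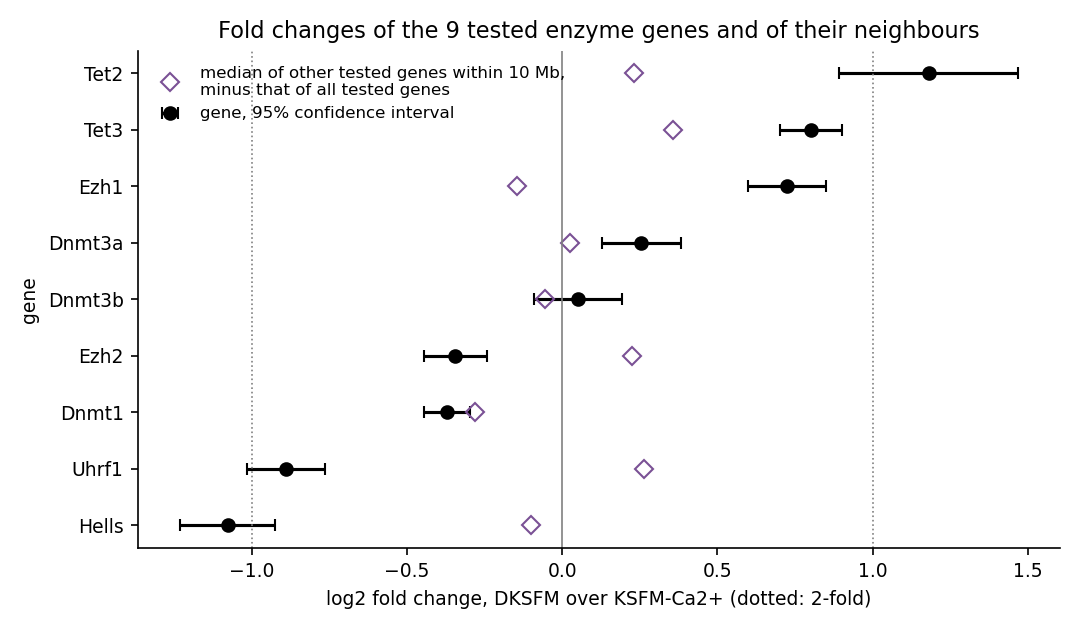
Log2 fold change of the 9 tested genes, DKSFM over KSFM-Ca2+ (points, with 95% confidence intervals from limma), and the median log2 fold change of the other tested genes within 10 Mb, relative to all tested genes (diamonds). The diamond of *Dnmt1* lies next to its point, while *Uhrf1*, *Ezh2*, *Ezh1* and *Dnmt3b* lie on the other side of 0 from theirs.

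Since maintenance methylation follows replication, the maintenance genes were set beside 22 genes of DNA replication and S phase. Of these, 20 were lower in the DKSFM cells at an adjusted p under 0.01 (limma) and 2 were higher, where 37.4% and 35.1% of all tested genes were. Their median log2 fold change was -0.97, where that of all tested genes was -0.01. The authors had already reported higher replication, mitosis and cell cycle functions in the KSFM-Ca2+ cells from these same data. The counts of this list and of the G2 and M phase list below are therefore not independent findings. *Pcna*, the replication clamp, had a mean of 383 ± 11.6 in the KSFM-Ca2+ and 163 ± 4.47 in the DKSFM libraries, and the helicase gene *Mcm7* had 292 ± 9.16 and 240.5 ± 6.34. *Mcm3* (log2 fold change -1.5) and *Gins2* (-1.41) fell most. The exceptions were *Rrm1* (0.45) and *Rfc3* (0.37), both named here after seeing their values. The changes of *Uhrf1* and *Hells* were near the median of this list, and that of *Dnmt1* was smaller. The median log2 value of the maintenance genes, which was that of *Uhrf1* in every library, exceeded the median of the S phase genes by 1.44, 1.29 and 1.30 in the KSFM-Ca2+ libraries and by 1.39, 1.24 and 1.42 in the DKSFM libraries. These differences overlapped between the lines, with means 0.01 apart (exact two-sided permutation p = 1). This holds for *Uhrf1* and not for the 3 genes alike. *Dnmt1* exceeded the S phase median by 1.62, 1.57 and 1.46 in the KSFM-Ca2+ libraries and by 2.08, 2.03 and 2.12 in the DKSFM libraries, without overlap. *Hells* lay at -0.69, -0.62 and -0.74 relative to it in the KSFM-Ca2+ cells, and the DKSFM values were -0.79, -0.86 and -0.96, also without overlap. The differences of *Dnmt1* and *Hells* were not tested. Of the 19 S phase genes with a promoter window, 7 had the E2F motif.

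Among 18 genes of the G2 and M phases, 17 were lower and none was higher at an adjusted p under 0.01 in limma (median log2 fold change -0.80), beside the same shares of all tested genes. *Tpx2*, a spindle gene, had a mean of 567 ± 16.6 in the KSFM-Ca2+ and 328 ± 21.2 in the DKSFM libraries, and *Ube2c* had 423 ± 18.8 and 322 ± 14.9. *Bub1* (log2 fold change -1.67) and *Top2a* (-1.49) fell most. Of 17 genes for E2F factors, pocket proteins and their partners, 11 were lower and 2 were higher, with a median of -0.44, where 37.4% of all tested genes were lower and 35.1% higher. *Tfdp1*, which encodes the partner of E2F proteins, fell from 689 ± 10.4 to 427 ± 4.49, and *Lin54* from 93.0 ± 2.13 to 64.1 ± 3.54. *E2f7*, which encodes a repressor, fell (log2 fold change -1.19), whereas *E2f2* had 0.595 ± 0.280 in the KSFM-Ca2+ and 9.66 ± 1.01 in the DKSFM libraries. *E2f2* passed the filter through the DKSFM line, since 1 of the 3 KSFM-Ca2+ libraries reached 0.5, and with every library required to pass, 1 gene of this list was called higher among 16 tested.

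Partners of the DNA methylation enzymes moved in both directions. Of 22 such genes, among them readers, repair enzymes and cofactors, 21 were tested. Of these, 8 were lower, 8 were higher and 5 did not pass the threshold of limma's test (median log2 fold change -0.07). These shares are near those of all tested genes, 37.4% lower and 35.1% higher. *Mat2a*, which makes the methyl donor, was the most covered in both lines (368 ± 13.4 in the KSFM-Ca2+ and 322 ± 3.86 in the DKSFM libraries). The gene *Mbd3* had 171 ± 6.07 and 167 ± 5.98, which overlapped. *Mbd4*, a glycosylase of the repair that can follow deamination, rose from 2.46 ± 0.0701 to 5.68 ± 0.509 (log2 fold change 1.17). *Gadd45a* fell from 60.6 ± 4.97 to 30.3 ± 3.10 (log2 fold change -1.0).

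Of 12 PRC2 subunits, the paralogues included, 11 were tested, of which 4 were lower, 6 were higher and 1 did not pass the threshold of limma's test, where 37.4% of all tested genes were lower and 35.1% higher. The median log2 fold change was 0.17. The core subunit *Suz12* fell from 122 ± 1.42 to 73.4 ± 2.91 (log2 fold change -0.74) and the histone-binding subunit *Rbbp7* from 215 ± 4.77 to 165 ± 1.82. The core did not fall as a whole: *Eed*, named here after seeing its values, rose from 61.7 ± 2.28 to 69.3 ± 1.48 (log2 fold change 0.17). Of the accessory subunits, *Jarid2* rose from 13.0 ± 0.586 to 34.1 ± 1.72 (log2 fold change 1.38, adjusted p = 1.41e-07, limma) and *Mtf2* from 144 ± 2.69 to 173 ± 5.40.

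Of 21 genes for Polycomb repressive complex 1, all tested, 7 were lower and 7 were higher at an adjusted p under 0.01 in limma (median log2 fold change 0.01), near the shares of all tested genes (37.4% and 35.1%). The ubiquitin ligase gene *Rnf2* fell from 164 ± 2.80 to 101 ± 3.90, on a chromosome region whose other genes had a median of -0.49 relative to all tested genes. Such medians also ran in the direction of the change for other genes named above, such as *Gins2* (-0.58), *Pcna* (-0.46) and *Mbd4* (0.41). For *Gadd45a* and *Mat2a*, which fell, the medians were both 0.33. The part of these regions in the changes was not tested. *Pcgf6*, at 122 ± 4.78 and 128 ± 6.58, did not pass the threshold. The chromobox genes *Cbx2* (5.92 ± 0.129 to 15.6 ± 0.327, log2 fold change 1.38) and *Cbx6* (56.9 ± 1.18 to 129 ± 6.94, log2 fold change 1.18) rose most. Of 12 genes whose products oppose Polycomb marks, 3 were lower and 4 were higher, with a median of 0.15, beside the same 37.4% and 35.1% of all tested genes. *Nsd2*, a methyltransferase for lysine 36 of histone H3, fell from 55.0 ± 1.46 to 25.7 ± 1.27 (log2 fold change -1.10). *Bap1*, which encodes a deubiquitinase, rose from 29.6 ± 0.917 to 37.4 ± 0.651 and *Kmt2c* from 3.08 ± 0.312 to 5.81 ± 0.0653.

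**Figure D5:**
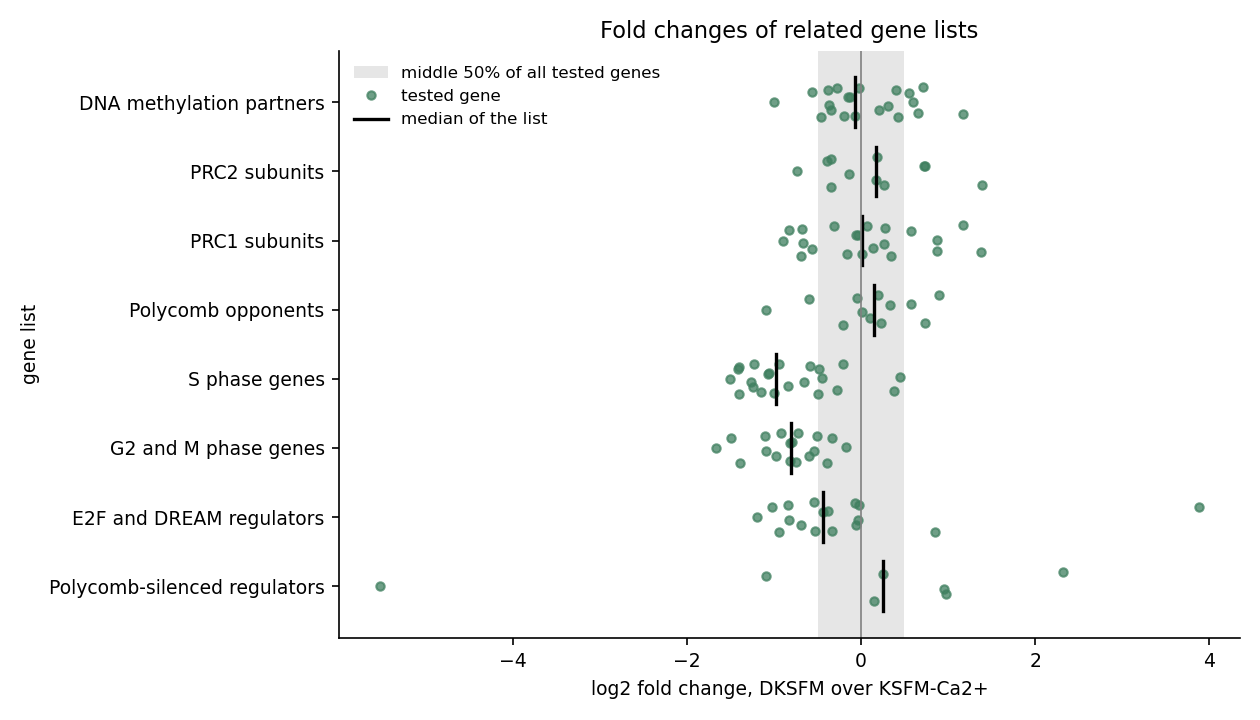
Log2 fold change, DKSFM over KSFM-Ca2+, of each tested gene in 8 lists of related genes, with black lines at the list medians and the middle 50% of all tested genes shaded. The medians of the S phase list and the G2 and M phase list are at -0.97 and -0.80; the shading shows the spread of single genes and tests no list. The outermost points are *Gata4* (left) and *E2f2* (right), which passed the filter through 1 line.

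Genes known to be kept silent by these enzymes in many somatic cells were also read, in 2 lists. DNA methylation and the Polycomb mark were not measured, so any part of the enzymes in the levels of either list was not tested. Of 18 germline genes known to need DNA methylation for silencing, 11 were listed at 0 in all 6 libraries. The only one that reached a normalized coverage of 1 in any library was *Brdt*, with means of 0.403 ± 0.0519 and 1.73 ± 0.0629 in the KSFM-Ca2+ and DKSFM cells. All 3 KSFM-Ca2+ libraries were under the filter of 0.5, so *Brdt* entered the test only through the DKSFM libraries, and neither a fold nor a p is given. The other 17 stayed at or under 0.318 in every library.

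Of 18 developmental regulators and cell cycle inhibitors known as Polycomb targets, 8 were listed at 0 in all libraries and 7 reached a normalized coverage of 1. *Cdkn2a*, which encodes the inhibitors p16INK4a and p19ARF, rose from 39.1 ± 1.42 in the KSFM-Ca2+ to 195 ± 4.88 in the DKSFM libraries (log2 fold change 2.31, adjusted p = 1.21e-09, limma). Its neighbour *Cdkn2b* rose from 36.4 ± 2.92 to 71.7 ± 4.27 (log2 fold change 0.98). The coverage per gene does not separate the transcripts of *Cdkn2a*. *Sox2* rose from 3.98 ± 0.789 to 7.67 ± 0.392, whereas *Gata6* fell from 5.33 ± 0.194 to 2.46 ± 0.186. *Gata4* had 7.28 ± 0.562 in the KSFM-Ca2+ libraries and 0.0684 ± 0.0593, under the rounding step, in the DKSFM libraries, and passed the filter only through the former. *Pax2* (3.42 ± 0.0591 and 4.08 ± 0.236) and *Isl1* (0.745 ± 0.301 and 0.797 ± 0.0887) did not pass the threshold. Of the 7 tested genes of this list 2 were lower, *Gata4* included, and 3 were higher, where 37.4% and 35.1% of all tested genes were. With every library required to pass the filter, which leaves out *Gata4* and *Isl1*, 1 was lower and 3 were higher among 5 tested. Over all 11112 genes tested in that way 4331 were lower and 3800 higher.

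The labelled cell type was checked against markers. All 10 keratinocyte markers were tested, 6 of them higher and 2 lower in the DKSFM cells (35.1% and 37.4% of all tested genes), and *Krt14* was the most covered, with 12002 in the KSFM-Ca2+ and 29656 in the DKSFM libraries. Their summed normalized coverage was 21215, 21616 and 21218 in the KSFM-Ca2+ libraries and 49989, 46021 and 50617 in the DKSFM libraries. Of 8 fibroblast markers, 6 were listed at 0 in every library (*Col1a1*, *Col1a2*, *Col3a1*, *Dcn*, *Lum* and *Thy1*), and the list summed to 1.14, 0.993 and 1.42 in the KSFM-Ca2+ and 2.97, 2.38 and 2.55 in the DKSFM libraries, led by *Pdgfra*. Of 8 melanocyte markers, *Dct*, *Tyr* and *Kit* were at 0 throughout, and the list summed to 4.12, 3.97 and 4.61 against 17.3, 18.7 and 18.4, most of it from *Mitf*. Of 7 immune markers, *H2-Ab1*, *Tyrobp* and *Cd3e* were at 0, and the sums were 1.30, 1.69 and 2.13 against 0.848, 0.496 and 0.637, with *Cd74* the most covered in the former and listed at 0 in each of the latter. Of 5 endothelial markers, *Cdh5* and *Emcn* were at 0, and the sums were 2.82, 3.18 and 3.31 against 8.27, 8.24 and 7.43, led by *Pecam1*. In each of these 4 lists 1 gene was tested. *Pdgfra*, *Mitf* and *Pecam1* were called higher in the DKSFM cells by limma, while *Cd74* passed the filter only through the KSFM-Ca2+ libraries, so no call is given for it. Any part of these genes in the results above was not tested.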

How the data were processed

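RNA-seq was compared between 3 KSFM-Ca2+ and 3 DKSFM libraries, grouped by their labels. The authors aligned directional poly(A) libraries to mm10 with STAR, quantified RefSeq genes with Salmon, tested differences with DESeq2 (not used here) and deposited a signal per gene, mean read coverage per base to 1 decimal, without scaling between libraries. No reads per gene were used, so the precision from counting is known only roughly, and the 0.1 step limits low values. With reads approximated from coverage, median transcript length and read length, the variance between 2 libraries was 1.21 to 2.18 times that of counting within a line and 57.2 to 68.2 times between lines; these ratios scale with the assumed lengths. No pair of libraries held identical values.

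Coverage is not a count, so limma 3.58.1 (R 4.3.3) was used. Libraries were scaled by a trimmed mean of M values without weights (30% of M and 5% of A values trimmed; factors 0.989 to 1.01). Genes reaching a normalized coverage of 0.5 in 3 or more libraries (2 or more in fits lacking a library) were tested on log2(normalized coverage + 0.1) with an intensity trend and no covariate, with Benjamini-Hochberg adjustment over all 12409 tested genes. Thresholds were an adjusted p of 0.01 and 2-fold. Ratios within libraries were tested by exact permutation.

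The 10 genes and the lists were chosen with earlier results of these data known. Named from each list were the 2 tested genes with the highest mean over all 6 libraries, the 2 with the largest change past the threshold whose higher line had a mean of 1 or more, and, in the lists of silenced genes, all that reached 1 in any library. Positions came from GENCODE M21 and promoter sequences from RefSeq (GRCm38.p6), matched by symbol. Alternatives were other scalings (relative log expression, library totals, quantile), filters and pseudocounts, no trend, a replicate block, each library left out, and only libraries marked as combined in the deposit. Python 3.11.15 and matplotlib 3.10.9 were used.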

Additional observations from a re-analysis of the deposited data

How the results depend on the processing

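The enzyme genes called in each direction were the same in number (4 lower, 4 higher, 1 on each side by 2-fold) under all 16 alternatives, except that without DKSFM replicate 2 only 3 were higher, since *Dnmt3a* lost its call (adjusted p 0.0128, against 0.00171 to 0.0128 over its alternatives). *Dnmt3b* passed the threshold under none of them, and its log2 fold change, 0.05 in the main fit, ran from -0.00104 to 0.0922 when single libraries were left out and was 0.145, the highest of all alternatives, with the libraries marked as combined. The number of all genes higher by 2-fold was 1019 when every library had to pass the filter, against 1624, since fewer genes were tested. The difference between maintenance and S phase medians ran from -0.0233 to 0.0654 when single libraries were left out, around a value of 0.01. Over all its alternatives the log2 ratio difference ran from -1.11 to -1.02 for *Ezh2* to *Ezh1* and from 0.15 to 0.26 for *Dnmt3a* to *Dnmt3b*.

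The replicate numbers gave no sign of pairing: same-numbered libraries had correlations of -0.005145, 0.02384 and -0.006105 in their deviations from the line means. Libraries with different numbers had correlations from -0.03703 to 0.04004. With 3 libraries in each line, such correlations cannot exclude a pairing. With the replicate number as a block (replicate block), 4 enzyme genes were again lower and 4 higher, and 1319 and 1631 genes passed 2-fold. All 3 DKSFM libraries were marked as combined, but only replicate 3 of the KSFM-Ca2+ libraries, so the mark nearly coincides with the line. With the libraries marked as combined, this single KSFM-Ca2+ library was assumed to vary like the others. The log2 fold change of *Tet2*, low in that library, was then 1.47, against 1.18 in the main fit. The 0.1 rounding step weighs most on genes of low coverage. Among the enzyme genes *Tet1* and *Tet2* had the lowest coverage, and many of the silenced genes were listed under the step.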
